A study of Mus musculus with 21 samples.

Results

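The 38 genes described here belong to the response to low oxygen and to the breakdown of glucose to lactate, and they were followed across 3 mouse cell lines in which the long noncoding RNA Esrp2-as was raised or lowered. They were listed by gene symbol rather than by a cutoff on measured values, though with earlier results of these data known, and each was matched to its Ensembl gene identifier in GENCODE release M21. All 38 were among the 48440 genes of the deposited count table, and all 38 passed the filter on low counts that left 21237 genes for testing. By role they comprised 4 genes for subunits and oxygen sensors of the hypoxia-inducible factor (HIF), 12 HIF target genes outside glycolysis, 2 glucose transporters, 11 genes of upper glycolysis and 9 genes of lower glycolysis and lactate handling.

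The data came from 14 biological replicates in 6 groups. In 3T3-L1, a preadipocyte line, Esrp2-as was overexpressed in 2 replicates and an empty vector was carried by 2. In M27H4, Esrp2-as was overexpressed in 3 replicates, with 3 empty vector controls. In M6, Esrp2-as was knocked down with an LNA antisense gapmer (a short synthetic oligonucleotide that directs cleavage of its target RNA) in 2 replicates, with 2 controls that the labels also call empty vector controls, although the knockdown itself used an oligonucleotide. M6 and M27H4 derive from mammary gland tumours of C3(1)SV40 TAg mice, which express the viral T antigen from a fragment of the C3(1) promoter, and each is a single established line. The labels give no animal age, no passage and no oxygen tension, and all lines share 1 growth protocol with DMEM, serum and CO2. They do not say whether the replicates came from separate cultures, so p-values measure the spread between these replicates.

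HIF is a transcription factor made of an alpha and a beta subunit. When oxygen is plentiful, prolyl hydroxylases (the Egln genes) mark the alpha subunits Hif1a and Epas1 for degradation, so that HIF activity is set largely at the protein level. At low oxygen the alpha subunit persists, pairs with its partner and binds a short DNA core, the hypoxia response element, near genes for glucose uptake, glycolysis, angiogenesis and mitophagy. Tumour lines often run glycolysis strongly even in the presence of oxygen.

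The replicates held 34892461 to 328493417 counts, the larger totals being sums of columns that the labels call technical replicates. Levels are given as CPM, counts scaled to the effective library size. Esrp2-as was at 45.8 and 35.5 CPM in 3T3-L1 overexpression against 0.25 and 0.355 in 3T3-L1 control, at 61.2, 65.9 and 15.9 in M27H4 overexpression against 0.731, 1.25 and 0.889 in M27H4 control, and at 0.527 and 0.851 in M6 knockdown against 2.96 and 2.42 in M6 control. These ranges follow the labels in each line, although Esrp2-as overlaps Esrp2 on the other strand, and the strand setting of the counting is not given in the sources used here. Summed CPM of 10 epithelial markers ran from 4599 to 6886 in M6, from 155 to 302 in M27H4 and from 28.9 to 36.9 in 3T3-L1. Summed CPM of 10 fibroblast and preadipocyte markers ran from 7585 to 9272 in 3T3-L1, from 1835 to 2209 in M27H4 and from 284 to 554 in M6. M27H4 thus had a low epithelial sum for a line labelled as derived from a mammary tumour, but the sums mix unlike levels. In M27H4 control Cdh1 averaged 134 CPM (113 to 169 CPM over replicates) and Krt18 59.4 CPM (36.2 to 76.5 CPM). Epcam averaged 4.31 CPM and Esrp1 0.671 CPM there, but their replicates differed widely, from 0.0488 to 8.14 CPM and from 0 to 1.03 CPM. Among the fibroblast markers, Pdgfra averaged 866 CPM in M27H4 control against 275 CPM in 3T3-L1 control, and Col1a1 4.56 against 494 CPM. Of 5 endothelial markers, Kdr, a receptor for Vegfa, averaged 24.2 CPM in M27H4 overexpression and 26.8 CPM in M27H4 control, while Pecam1 was at most 0.334 CPM there and Cdh5 and Emcn had 0 counts in M27H4 control. The endothelial sum reached at most 2.05 CPM in 3T3-L1 and 0.5 CPM in M6. Adipocyte markers summed to at most 4.27 CPM in any replicate, with Pck1, an enzyme of glucose synthesis, at 0 counts in every group, and summed immune markers stayed at or below 13.7 CPM.

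Promoter windows from RefSeq (GRCm38.p6, 250 bases before to 50 bases after an annotated start) were found for 34 of the 38 genes, 52 windows in all. None was given for Bnip3l, Ndrg1, Slc2a3 and Epas1. The HIF core was searched as ACGTG or GCGTG on both strands. It was present in 76.9% of the 52 windows and in 43.8% of all 32851 windows of 300 bases, and 21.2% of the 52 windows held 3 or more separate stretches of core letters against 6.43% of all windows. By gene, 31 of the 34 held a core in at least 1 window, against 46.7% of all 27025 genes. The letters ACGTG alone were in 53.8% of these windows and in 19.6% of all windows. CACGTG, an E-box that overlaps ACGTG, was in 11.5% and 7.15%. A match describes the letters and is no evidence of binding. The windows of 5 genes that recur in the results are given 5′ to 3′ on the gene's strand, with each core in capitals, because they show the range from 1 stretch to 5. They lie on GRCm38.p6 at chr7:46845554-46845853 (plus strand) for Ldha, chr13:6648722-6649021 (minus) for Pfkp, chr11:78322823-78323122 (plus) for Aldoc, chr6:82774405-82774704 (minus) for Hk2 and chr12:54203825-54204124 (minus) for Egln3.
Ldha: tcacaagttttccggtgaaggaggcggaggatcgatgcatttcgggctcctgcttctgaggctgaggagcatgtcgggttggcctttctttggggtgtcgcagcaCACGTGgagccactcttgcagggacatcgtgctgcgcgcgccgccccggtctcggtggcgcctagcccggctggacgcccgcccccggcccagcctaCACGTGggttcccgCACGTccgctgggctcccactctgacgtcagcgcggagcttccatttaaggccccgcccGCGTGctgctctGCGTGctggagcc
Pfkp: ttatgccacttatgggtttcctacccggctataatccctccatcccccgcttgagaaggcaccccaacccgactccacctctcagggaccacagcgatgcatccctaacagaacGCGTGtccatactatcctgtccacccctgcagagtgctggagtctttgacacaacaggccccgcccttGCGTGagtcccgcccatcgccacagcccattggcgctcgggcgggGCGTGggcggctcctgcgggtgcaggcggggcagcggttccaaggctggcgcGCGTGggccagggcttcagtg
Aldoc: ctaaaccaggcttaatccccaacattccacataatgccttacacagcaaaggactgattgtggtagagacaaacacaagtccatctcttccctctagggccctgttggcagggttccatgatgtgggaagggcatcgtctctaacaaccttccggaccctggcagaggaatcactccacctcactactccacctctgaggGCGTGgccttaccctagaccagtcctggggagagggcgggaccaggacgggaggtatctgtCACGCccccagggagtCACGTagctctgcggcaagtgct
Hk2: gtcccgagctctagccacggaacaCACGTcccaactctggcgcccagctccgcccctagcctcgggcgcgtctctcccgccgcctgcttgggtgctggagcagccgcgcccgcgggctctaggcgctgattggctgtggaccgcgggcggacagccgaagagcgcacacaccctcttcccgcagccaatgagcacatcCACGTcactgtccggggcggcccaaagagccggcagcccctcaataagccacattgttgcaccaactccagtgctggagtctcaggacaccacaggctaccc
Egln3: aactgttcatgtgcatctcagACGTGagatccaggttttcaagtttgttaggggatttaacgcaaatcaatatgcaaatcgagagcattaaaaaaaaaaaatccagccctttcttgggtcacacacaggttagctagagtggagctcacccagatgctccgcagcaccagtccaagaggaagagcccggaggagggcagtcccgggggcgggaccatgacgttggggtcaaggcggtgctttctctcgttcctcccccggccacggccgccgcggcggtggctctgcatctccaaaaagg
Ldha, the lactate dehydrogenase subunit, had 5 separate stretches in this window, which hold 7 matches because CACGTG matches on both strands. Pfkp had 4 stretches, Aldoc 3, Hk2 2 and Egln3 1. Eno2, whose level differed most between M27H4 and M6 among the genes that were higher, had no core in its window at chr6:124769624-124769923 (minus strand).

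Per kilobase of merged exons, the same few glycolytic genes led in each line. Pkm, which makes pyruvate, had the highest level per kilobase, with 564 CPM per kilobase in 3T3-L1 control, 1027 in M27H4 control and 904 in M6 control. Pgk1, an ATP-forming kinase of lower glycolysis, came next in each line at 297, 715 and 509 CPM per kilobase in the same order. At the other end of this scale, Egln3, an oxygen sensor, ranked last of the 38 in M27H4 control and M6 control. In 3T3-L1 control it ranked 32, above Aldoc at 0.159 and Epas1 at 0.13 CPM per kilobase among others. Egln3 was at 1.44, 0.0256 and 0.00366 CPM per kilobase in that order of lines. Slc2a3, a glucose transporter best known from neurons, was at 0.00871, 0.0337 and 0.0459 CPM per kilobase. Car9, a membrane carbonic anhydrase, was at 0.0187, 0.438 and 0.275, and Slc16a3, a lactate exporter, at 0.0698, 0.0528 and 0.537. In the heat map of the 38 genes, Egln3, Aldoc, Adm and Eno2 each set at least 1 line apart from the others in treated and control replicates alike, and replicates of 1 group differed in M27H4 and M6.

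**Figure D1:**
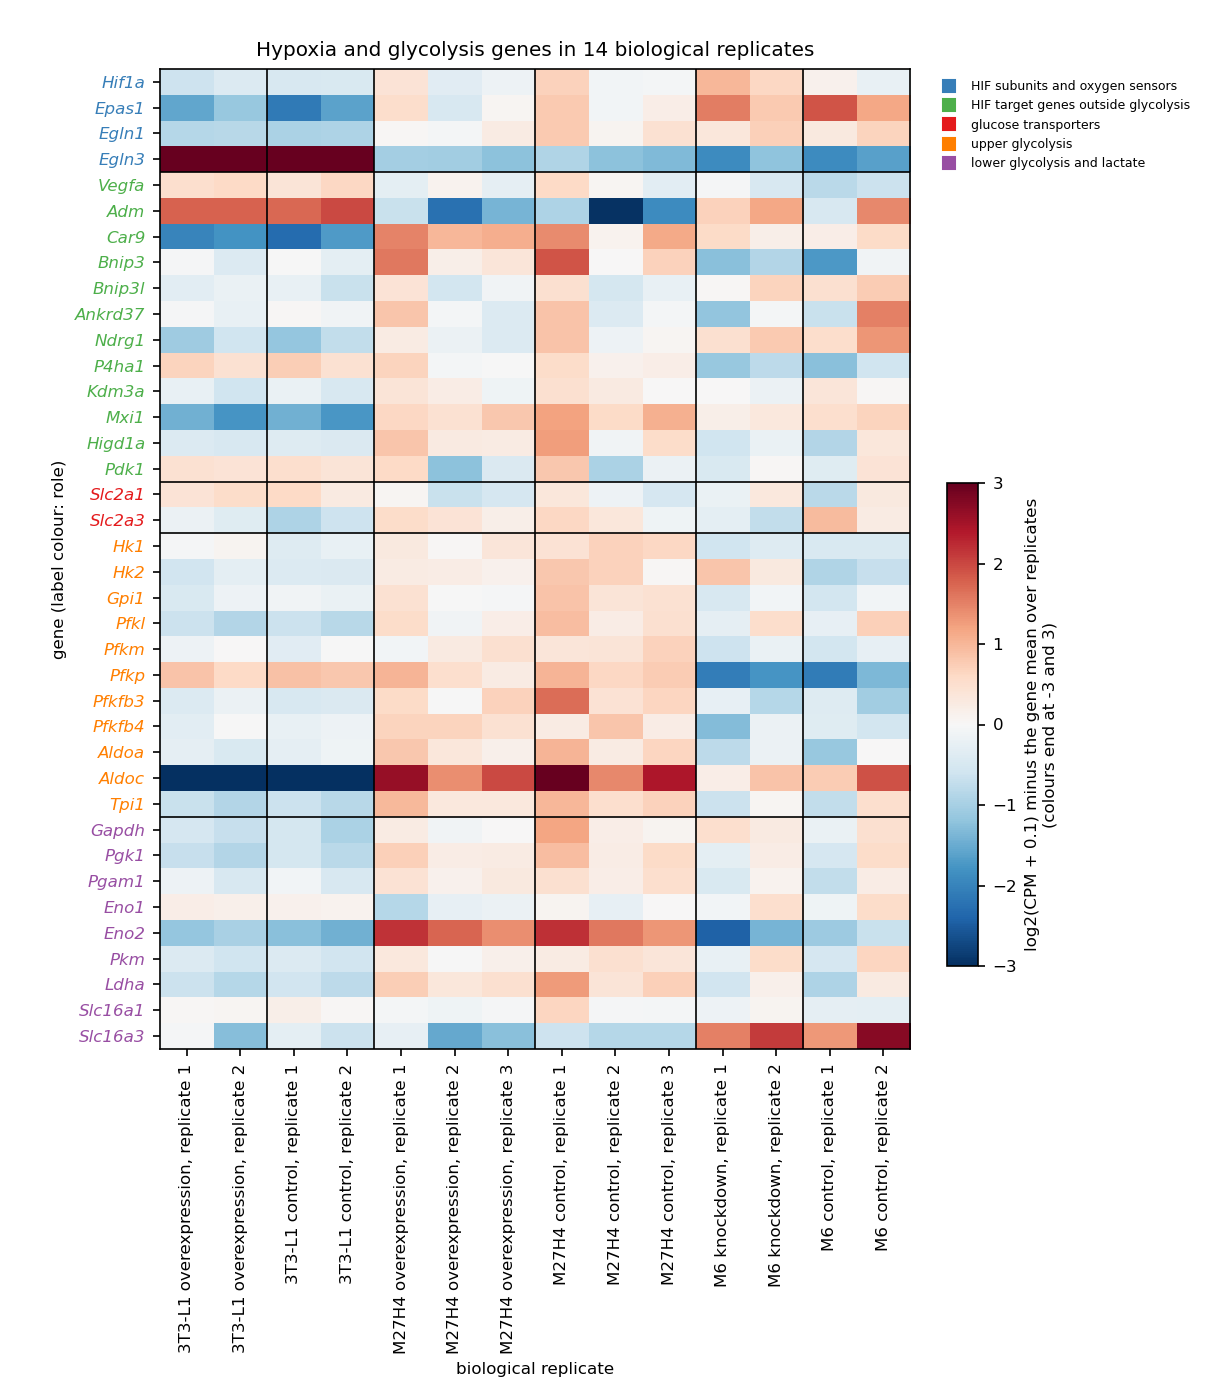
Heat map of the 38 genes (rows, ordered by role) in the 14 biological replicates (columns, by group), coloured by log2(CPM + 0.1) minus the gene's mean over replicates. The 3T3-L1 replicates stand out by high Egln3 (2.89 to 4.58 CPM) and low Aldoc (0.426 to 0.653 CPM), and replicate 1 of both M27H4 groups is redder than replicates 2 and 3 in many rows.

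The first comparison asked how the lines differ in these genes without a change of Esrp2-as, using the control replicates. Each line's controls enter 2 of the 3 line comparisons, so these comparisons are not independent of each other. Lines also differed in the code at the end of their column names, whose meaning the labels do not give. M6 replicate 1 and 1 column of each M6 replicate 2 had a code that no other line carried. Within a pair of codes carried by control columns of all 3 lines, the called genes of every line comparison kept their direction (23 of 23, 15 of 15 and 15 of 15 in the order given next). These columns are 1 control replicate of each line and part of the data behind the calls. In them the difference was smaller by over 1.5 times for 8 of the 23 called genes in 3T3-L1 control over M27H4 control and for 4 of the 15 in M27H4 control over M6 control, where it was larger by that factor for 2. In M27H4 control over M6 control it was 0.11 for Ldha and 0.24 for Aldoa, against 1.04 and 1.11 over all replicates. In bulk RNA, fewer cells in a given state and less RNA per cell cannot be told apart.

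In 3T3-L1 control cells most of glycolysis was lower than in M27H4 control cells. Of the 38 genes, 21 were lower and 2 higher by edgeR's quasi-likelihood test at an adjusted p under 0.05, against 17.8% of all tested genes lower and 18.9% higher. The lower genes comprised 8 of 11 of upper glycolysis, 5 of 9 of lower glycolysis and lactate, 1 of 2 glucose transporters, 5 of 12 HIF targets outside glycolysis, and 2 of 4 HIF subunits and sensors. The median log2 difference of the 38 genes was -0.86, against 0.02 over all tested genes. Aldoc (ENSMUSG00000017390, chromosome 11 from 78322968 to 78327781), an aldolase isozyme known from brain, measured 0.514 and 0.525 CPM in 3T3-L1 control against 95.7, 30.6 and 60.9 CPM in M27H4 control. Its log2 difference of -6.91 ± 0.68 (SE) was the largest among the 38 (edgeR adjusted p = 1.04e-05). Eno2, the enolase isozyme of neurons, was at 8.17 and 7.25 CPM against 90.9, 59.7 and 49.7 CPM, a log2 difference of -3.11 ± 0.37 (edgeR adjusted p = 2.2e-05). The groups did not overlap for either gene, although the M27H4 controls themselves spanned a wide range for Aldoc.

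Among the HIF targets, Car9 was at 0.0137 and 0.0727 CPM in 3T3-L1 control, from 3 and 9 counts, and 1.4, 0.498 and 1.13 CPM in M27H4 control, a log2 difference of -4.64 ± 0.71 (edgeR adjusted p = 0.000181). Mxi1, which codes for a repressor that competes with Myc for its partner, was at 15.7 and 12.7 CPM against 97.5, 63 and 88.5 CPM (log2 difference -2.55 ± 0.23, edgeR adjusted p = 2.13e-06). Both sets of replicates were fully apart. The genes that were higher in 3T3-L1 control were Egln3 and Adm. Egln3 (ENSMUSG00000035105, chromosome 12 from 54178981 to 54203860), a prolyl hydroxylase and itself a HIF target, was at 4.58 and 3.08 CPM in 3T3-L1 control against 0.0975, 0.0576 and 0.0489 CPM in M27H4 control (log2 difference 5.88 ± 0.58, edgeR adjusted p = 4.81e-06). Adm, the vasodilator peptide adrenomedullin, was at 10.2 and 12.1 CPM against 1.54, 0.299 and 0.734 CPM (3.73 ± 0.68, edgeR adjusted p = 0.000968).

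The core enzymes differed less. Ldha was at 769 and 663 CPM in 3T3-L1 control and at 2752, 1491 and 1876 CPM in M27H4 control, a log2 difference of -1.51 ± 0.36 (edgeR adjusted p = 0.00481). Tpi1, the triose isomerase, had -1.47 ± 0.35, and Pgk1 -1.27 ± 0.31. Pkm had -0.86 ± 0.31 (edgeR adjusted p = 0.0413), a call that was lost with any 1 of the 5 replicates left out. Of the 23 calls, 11 stood through every omission of 1 replicate (Aldoc, Car9, Eno2, Mxi1, Epas1, Ldha, Tpi1, Egln1, Hk1, Adm and Egln3). Without 3T3-L1 control replicate 1, 15 calls were left, and without 3T3-L1 control replicate 2, 13, where Hk2, Pgk1, Pkm and Gapdh were among those lost.

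In 3T3-L1 control cells against M6 control cells the split ran through both gene classes. Here 4 genes were higher (Egln3, Pfkp, P4ha1 and Vegfa) and 11 lower (Aldoc, Car9, Epas1, Slc16a3, Slc2a3, Mxi1, Ndrg1, Egln1, Bnip3l, Pfkl and Gapdh) by edgeR's quasi-likelihood test, against 20.5% of all tested genes higher and 18.9% lower. Of the HIF targets outside glycolysis 2 were higher and 4 lower. Of upper glycolysis 1 was higher and 2 were lower, and of lower glycolysis and lactate 2 were lower and none higher. The median log2 difference was -0.35, against 0.05 over all tested genes.

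Egln3 was at 4.58 and 3.08 CPM in 3T3-L1 control, against 0 and 0.0195 CPM in M6 control. The M6 values came from 6 counts in all, so its log2 difference of 7.87 ± 0.8 (edgeR adjusted p = 4.81e-06) rests on very few M6 counts, and it became 12 without M6 control replicate 2. Pfkp (ENSMUSG00000021196, chromosome 13 from 6579768 to 6648777), the platelet isozyme of phosphofructokinase, was at 109.9 and 105 CPM in 3T3-L1 control against 13.8 and 23.2 CPM in M6 control, a log2 difference of 2.53 ± 0.3 (edgeR adjusted p = 1.63e-05). P4ha1, a collagen prolyl hydroxylase, was at 311 and 257 CPM against 77.4 and 122 CPM, and Vegfa, the angiogenic growth factor, at 83.4 and 97.2 CPM against 36.1 and 40.7 CPM. None of these ranges overlapped.

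In the other direction, Aldoc was at 0.514 and 0.525 CPM in 3T3-L1 control against 19.1 and 42.4 CPM in M6 control (log2 difference -5.89 ± 0.67, edgeR adjusted p = 2.5e-05). Epas1 (ENSMUSG00000024140, chromosome 17 from 86753700 to 86833410), the HIF-2 alpha subunit, was at 0.583 and 0.872 CPM against 10.9 and 6.45 CPM (-3.58 ± 0.48, edgeR adjusted p = 5.62e-05). Car9 had -3.99 ± 0.72 and Slc16a3 -2.95 ± 0.68. Hif1a itself did not pass, at 344 and 349 CPM in 3T3-L1 control against 529 and 412 CPM in M6 control. Of the 15 calls, 11 stood through every omission of 1 replicate. Those of Bnip3l, Pfkl, Gapdh and Slc2a3 did not, and that of Gapdh was also lost when its pseudogene copies were counted with it (log2 difference -0.53, edgeR adjusted p = 0.21).

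M27H4 control cells had more of upper glycolysis than M6 control cells. By edgeR's quasi-likelihood test 12 genes were higher and 3 lower, against 15.2% of all tested genes higher and 15.0% lower. All 11 genes of upper glycolysis had a positive difference and 8 of them passed (Pfkp, Pfkfb3, Hk2, Aldoa, Hk1, Pfkfb4, Gpi1 and Pfkm). The difference of Pfkl, 0.26 ± 0.31, turned to -0.15 without M6 control replicate 1. Of lower glycolysis and lactate, Eno2 and Ldha were higher and Slc16a3 lower. P4ha1 and Vegfa were the HIF targets that were higher, and Adm and Epas1 were lower. The median log2 difference was 0.55, against 0.02 over all tested genes.

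Eno2 was at 90.9, 59.7 and 49.7 CPM in M27H4 control and at 9.27 and 12.5 CPM in M6 control (log2 difference 2.61 ± 0.36, edgeR adjusted p = 8.76e-05). Pfkp was at 121, 91.7 and 101 CPM against 13.8 and 23.2 CPM (2.49 ± 0.28, edgeR adjusted p = 1.67e-05). Pfkfb3, which makes the activator of phosphofructokinase, was at 44.9, 18.8 and 21.9 CPM against 10.6 and 6.68 CPM (1.73 ± 0.38, edgeR adjusted p = 0.00369). These groups did not overlap, and M27H4 control replicate 1 was the highest of its group for each of the 3 genes.

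Hk2 (ENSMUSG00000000628, chromosome 6 from 82725025 to 82774454), the inducible hexokinase that traps glucose in the cell, was at 161, 149.8 and 94.1 CPM in M27H4 control against 49.1 and 57.1 CPM in M6 control (log2 difference 1.35 ± 0.24, edgeR adjusted p = 0.00071). Slc16a3 (ENSMUSG00000025161, chromosome 11 from 120948480 to 120960868) was at 0.325, 0.257 and 0.261 CPM against 1.49 and 4.22 CPM (-3.37 ± 0.6, edgeR adjusted p = 0.000743). Adm had -2.65 ± 0.66 and Epas1 -1.25 ± 0.39. Leaving out M27H4 control replicate 1 ended the calls of Aldoa, Ldha and Vegfa. Those of Epas1 and Pfkfb4 ended without M27H4 control replicate 2, and those of Epas1 and Ldha without M27H4 control replicate 3. The calls of Slc16a3, Hk1, P4ha1, Hk2, Pfkfb3, Pfkp and Eno2 stood through every omission of 1 replicate. Without M6 control replicate 1, 8 of the 15 calls were left, and those of Aldoa, Epas1, Gpi1, Ldha, Pfkfb4, Pfkm and Vegfa were lost. The call of Adm was lost without M6 control replicate 2.

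**Figure D2:**
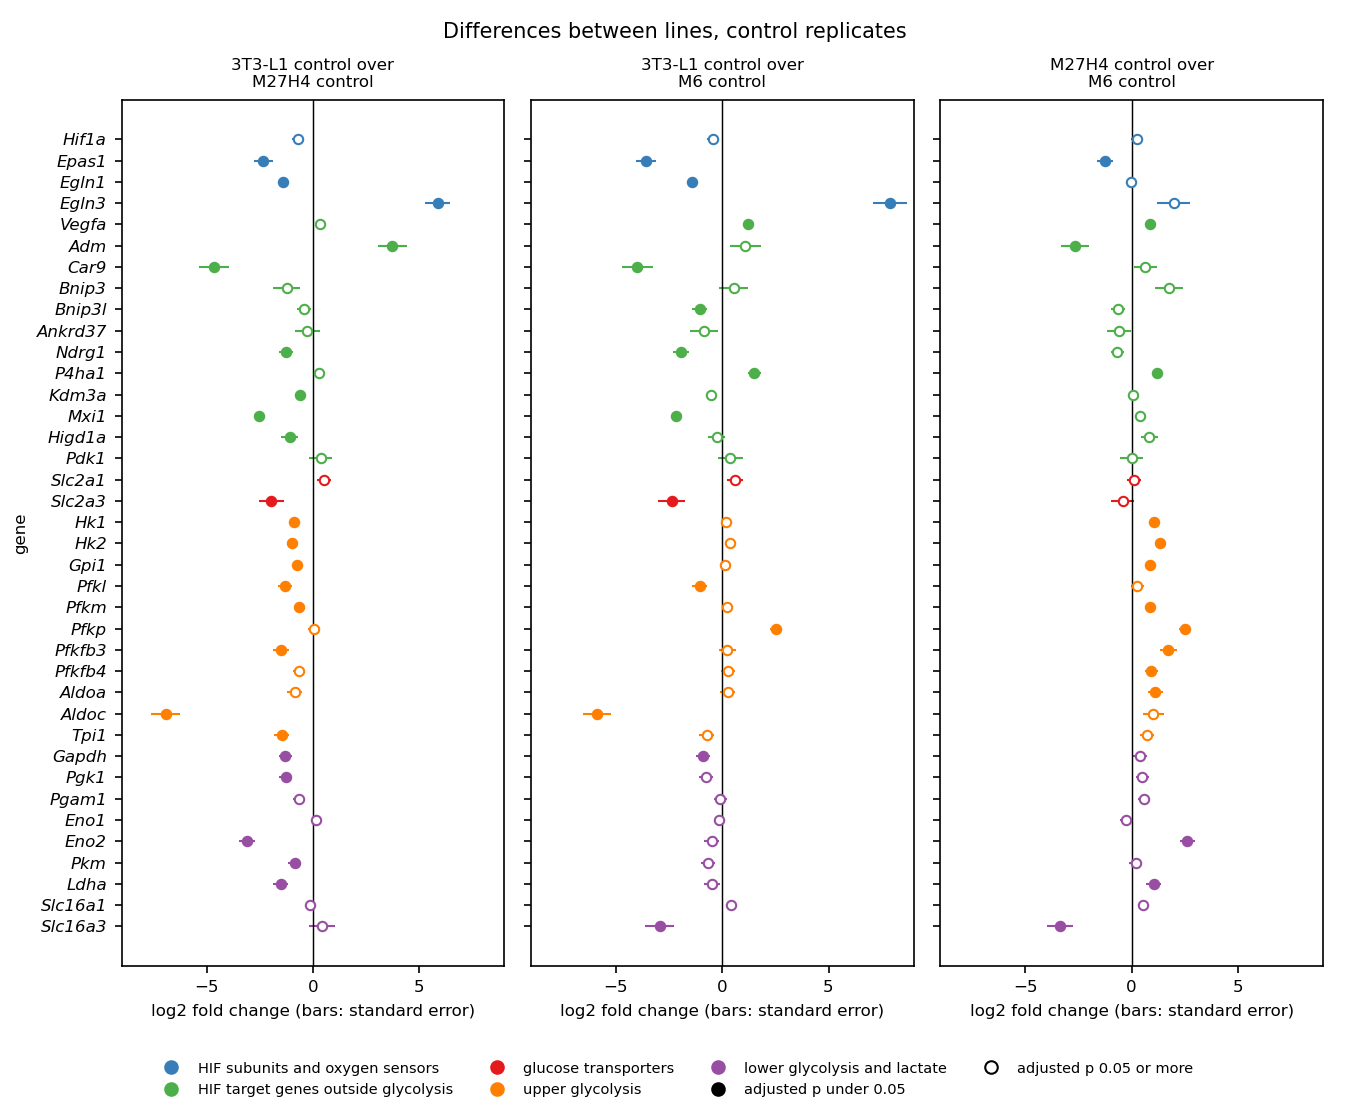
Log2 fold change (x axis) of each of the 38 genes (rows, coloured by role) between control replicates of 2 lines, with bars for the standard error and filled points for an edgeR adjusted p under 0.05. Points left of 0 are lower in the line named first, as for 21 filled points in 3T3-L1 control over M27H4 control, and Aldoc (-6.91) and Egln3 (5.88) lie farthest out.

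The epithelial and fibroblast marker sums given above differed between the same lines, and their part in these differences was not tested. A split of isozymes was visible in the levels of the controls. For Pfkp no difference was detected between 3T3-L1 control and M27H4 control (log2 difference 0.04 ± 0.25), while Pfkl, the liver isozyme, was lower in 3T3-L1 control (-1.31 ± 0.33). For Eno1, the main enolase, no difference was detected between any of the lines, with log2 differences of 0.16 ± 0.25 for 3T3-L1 over M27H4, -0.13 ± 0.28 for 3T3-L1 over M6 and -0.29 ± 0.25 for M27H4 over M6. Those against M6 turned sign without M6 control replicate 2.

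Pkm is spliced into an M1 form, typical of differentiated tissues, and an M2 form, typical of proliferating cells. In the deposited transcript counts the M1 form (Pkm-202, ENSMUST00000163694, with its own exon on chromosome 9 from 59675029 to 59675195) and the M2 form (Pkm-201, ENSMUST00000034834, exon from 59675568 to 59675734) were estimated by the authors' assembler. The M1 share of both was 19.7% and 20.7% in 3T3-L1 overexpression and 19.1% and 21.6% in 3T3-L1 control. It was 8.76%, 7.71% and 7.76% in M27H4 overexpression and 7.99%, 8.14% and 7.7% in M27H4 control. In M6 it was 9.57% and 7.66% in knockdown and 8.67% and 7.08% in control. The share was thus higher in all 4 replicates of 3T3-L1 than in any other, and treated and control ranges overlapped in each line. These shares are a description with no test.

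**Figure D3:**
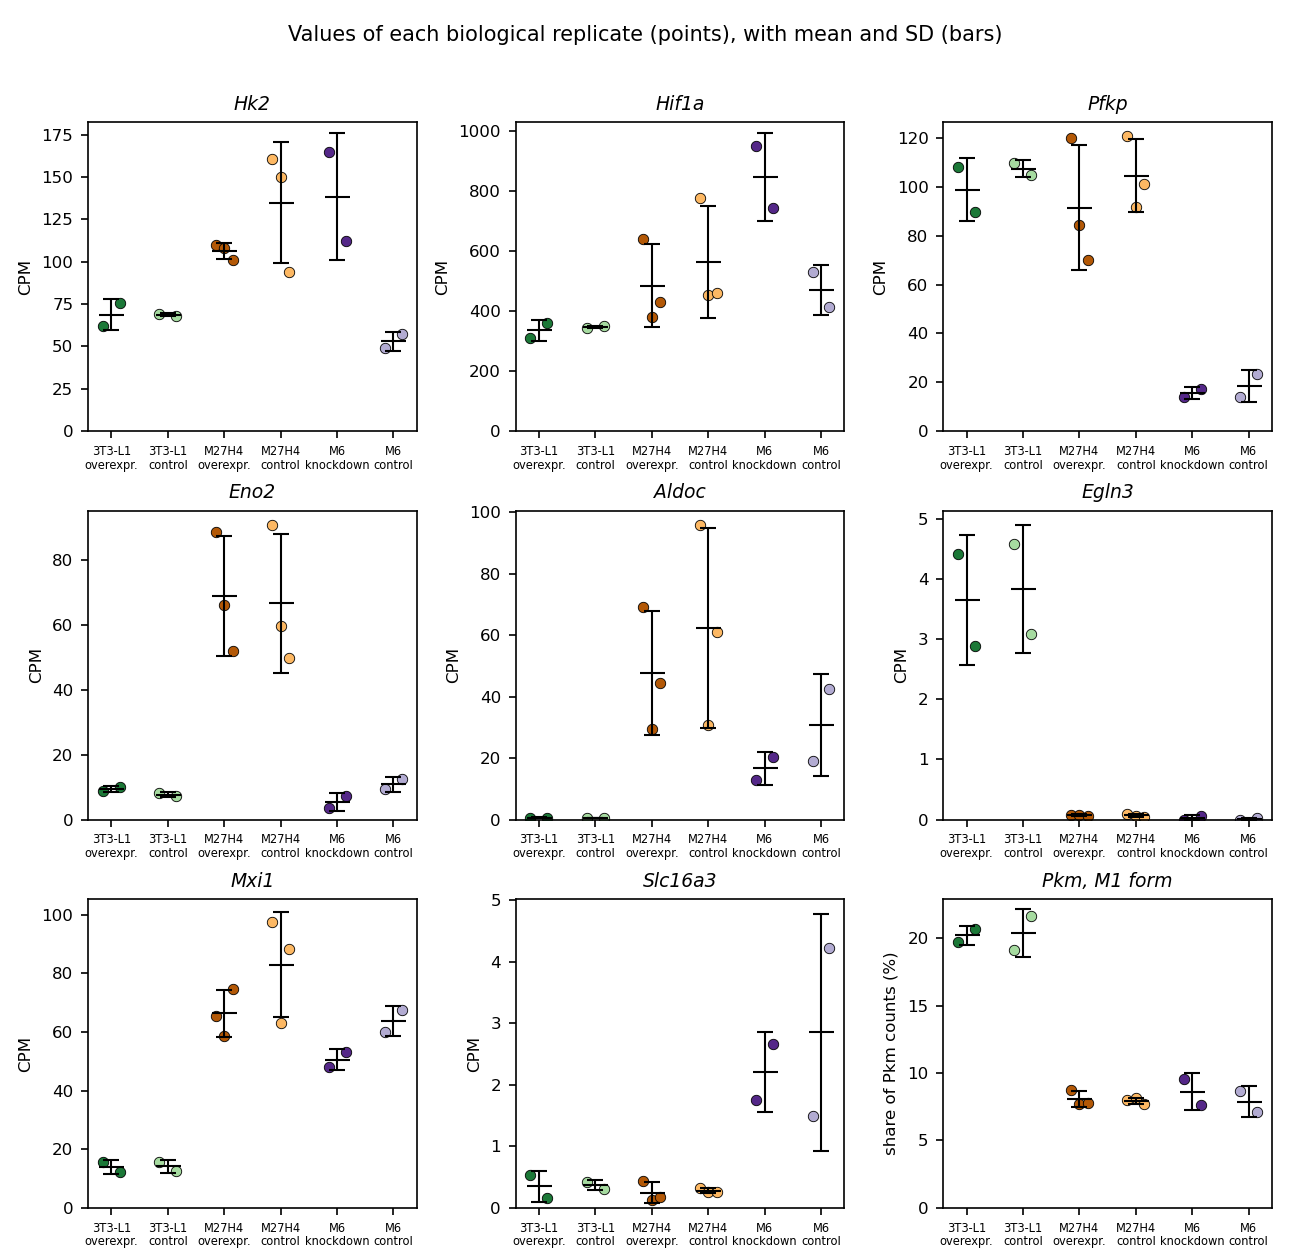
CPM of 8 of the genes, and the M1 share of Pkm counts in percent, in each biological replicate (points) with the group mean and SD (bars). Hk2 in M6 knockdown lies at 165 and 112 CPM, above both M6 controls, Egln3 is above 2 CPM in 3T3-L1 replicates alone, and the M1 share of Pkm is 19.1% or more in these 4 replicates.

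The treatment comparisons asked whether any of the 38 genes moved with Esrp2-as within a line. None passed edgeR's quasi-likelihood test at an adjusted p under 0.05 in any of the 3 comparisons. The counts at an unadjusted p under 0.05 were 0 in 3T3-L1, 1 in M27H4 and 4 in M6, and over all 21237 genes they were 201, 358 and 1331. DESeq2 called 0, 0 and 1 of the 38 genes in the same order, and limma voom none. The share of all genes that these methods called is not given here. The share of all tested genes that edgeR called was 0.00471% in 3T3-L1, 0.00942% in M27H4 and 0.137% in M6, so few calls were made among genes of any kind. The 95% interval of the log2 change lay within a change of 1 in either direction for 26 of the 38 genes in 3T3-L1, 25 in M27H4 and 18 in M6, and for the other genes it reached past 1.

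In M6 the gene with the smallest p was Hk2. It was at 165 and 112 CPM in M6 knockdown and at 49.1 and 57.1 CPM in M6 control. The groups did not overlap, and the log2 difference was 1.38 ± 0.26 (SE, 95% interval 0.83 to 1.93), which missed the threshold by edgeR (adjusted p = 0.0646). By single column, as CPM of the column total, the knockdown values were 177 for replicate 1 and 91.1 and 119 for replicate 2, and the control values 53.2 for replicate 1 and 59.2, 50.5 and 53.5 for replicate 2. Hk2 passed with DESeq2 (log2 difference 1.42, adjusted p = 0.000543) and with edgeR without the filter on low counts (1.41, adjusted p = 0.00694). When 1 replicate was left out, the difference ranged from 1.08 to 1.62 and the edgeR adjusted p from 0.0355 to 0.448, and it passed without M6 knockdown replicate 2.

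Hif1a (ENSMUSG00000021109, chromosome 12 from 73901375 to 73947530), the main HIF alpha subunit, was at 951 and 744 CPM in M6 knockdown against 529 and 412 CPM in M6 control. The replicates were apart, with a log2 difference of 0.85 ± 0.3 and an edgeR adjusted p of 0.597. Vegfa was at 61.5 and 45.4 CPM against 36.1 and 40.7 CPM (0.48 ± 0.27, edgeR adjusted p = 0.925). Eno2 was at 3.57 and 7.4 CPM in M6 knockdown against 9.27 and 12.5 CPM in M6 control (-0.98 ± 0.36, edgeR adjusted p = 0.614), and this difference was -1.63 without M6 knockdown replicate 2 and -0.56 without M6 knockdown replicate 1. Slc2a3 was sparse throughout, at 0.127 and 0.0672 CPM against 0.435 and 0.23 CPM (-1.82 ± 0.66, edgeR adjusted p = 0.604). With the replicate number added to the model as a block, edgeR called Hk2 and Hif1a higher and Eno2 lower in M6 knockdown. The share of all genes called is not given for that fit, and whether same-numbered replicates form pairs was not settled.

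Ankrd37, an ankyrin-repeat HIF target, depended on which replicates were kept. It was at 1.75 and 3.95 CPM in M6 knockdown against 2.55 and 12 CPM in M6 control, so the ranges overlapped, although each knockdown replicate was below the control of the same number. The log2 difference of -1.34 ± 0.66 turned to 0.19 without M6 control replicate 2 (edgeR adjusted p = 0.845 with all replicates). Its exons also overlap those of Ufsp2 on the other strand. Of the 38 genes, 14 had a positive and 24 a negative log2 difference in M6, with a median of -0.04 against -0.03 over all genes. The ranges of the 2 knockdown and 2 control replicates did not overlap for 8 genes of the 38, 4 higher and 4 lower, against 26.4% of all tested genes, so separation was no more common among them than among genes in general. Of the 12 HIF targets outside glycolysis 2 had a positive difference, and of the 11 genes of upper glycolysis 3, where 43.9% of all genes had one. Summed fibroblast markers were also apart in this comparison, at 284 to 366 CPM in M6 knockdown and 485 to 554 CPM in M6 control. Most of that sum was Vim, with 278 CPM on average in M6 knockdown and 429 CPM in M6 control. Summed epithelial markers overlapped, at 4599 to 6638 CPM in M6 knockdown and 4766 to 6886 CPM in M6 control, but Epcam and Esrp1 were lower and Krt7, Cldn4 and Krt5 higher in knockdown with separate ranges. The part of these markers in the differences was not tested. Leaving out M6 control replicate 2 turned the sign of 16 of the 38 differences, and leaving out any other M6 replicate turned 9 to 11. As given below, replicate 2 exceeded replicate 1 in both M6 groups for 25 of 35 genes. Leaving a replicate out of 1 group alone therefore unbalances this comparison too.

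In M27H4 no gene passed, and the group estimates leaned to the negative side while replicates of both groups overlapped for all but 1 gene. Of the 38, 32 had a negative and 6 a positive log2 difference, with a median of -0.24 against -0.03 over all genes, where 43.9% were positive. The ranges did not overlap for 1 gene, against 5.10% of all tested genes. That gene was Hk1, a widely expressed hexokinase, at 142, 119 and 148 CPM in M27H4 overexpression against 156, 187 and 178 CPM in M27H4 control, a log2 difference of -0.35 ± 0.14 (unadjusted p = 0.0288, edgeR adjusted p = 1).

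The differences of the next genes by p-value shrank by over 1.5 times when M27H4 control replicate 1 was left out. Egln1, the main oxygen sensor, was at 99.5, 93.3 and 114 CPM in M27H4 overexpression against 168, 102 and 134 CPM in M27H4 control. Its log2 difference was -0.4 ± 0.19 (edgeR adjusted p = 1) and -0.21 without M27H4 control replicate 1. Gpi1, the glucose phosphate isomerase, was at 335, 242 and 239 CPM against 442, 318 and 334 CPM (-0.42 ± 0.2, and -0.26 without that control). Gapdh was at 252, 195 and 212 CPM against 478, 243 and 223 CPM (-0.52 ± 0.28, and -0.08 without it). For these 3 genes each overexpression replicate was below the control of the same number, and overexpression replicate 1 was itself the highest of its group for Gpi1 and Gapdh.

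Pfkfb3 was at 20.9, 13.8 and 22.6 CPM in M27H4 overexpression against 44.9, 18.8 and 21.9 CPM in M27H4 control (-0.58 ± 0.32, and -0.09 without control replicate 1). Mxi1 was at 65.5, 58.7 and 74.8 CPM against 97.5, 63 and 88.5 CPM (-0.32 ± 0.19, and -0.19 without it). Control replicate 1 was the highest of the 6 values for each of these 5 genes. Leaving it out moved 33 of the 38 differences by over 1.5 times or turned them, with 12 changes of sign. Leaving out overexpression replicate 1 changed 24, with 2 changes of sign, and leaving out any other replicate changed 15 to 20. As given below, replicate 1 exceeded replicate 2 in both groups for 29 of 35 genes. Leaving it out of 1 group alone therefore unbalances the comparison.

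In 3T3-L1 the differences lay on both sides of 0, and 1 gene, Slc2a3, differed by more than 1 on the log2 scale. Of the 38 genes, 17 had a positive and 21 a negative log2 difference, with a median of -0.01 against 0 over all genes. Ranges of 2 against 2 replicates did not overlap for 8 genes of the 38, 7 higher and 1 lower, against 23.2% of all tested genes. Hk1 was at 112 and 123 CPM in 3T3-L1 overexpression against 88.7 and 99.3 CPM in 3T3-L1 control (log2 difference 0.32 ± 0.18, edgeR adjusted p = 1). Epas1 was at 0.909 and 1.25 CPM against 0.583 and 0.872 CPM (0.57 ± 0.44), and Slc2a3 at 0.147 and 0.115 CPM against 0.0455 and 0.0808 CPM (1.08 ± 0.63). These 3 genes had separate ranges, but Epas1 and Slc2a3 were at low levels in this line. When 1 replicate was left out, the difference of Epas1 ranged from 0.3 without 3T3-L1 control replicate 1 to 0.87 without 3T3-L1 control replicate 2, and that of Slc2a3 from 0.7 to 1.5 with the same replicates left out.

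Eno2 was at 8.79 and 10.1 CPM in 3T3-L1 overexpression against 8.17 and 7.25 CPM in 3T3-L1 control (0.29 ± 0.36). Gpi1 had a log2 difference of -0.13 ± 0.25 that became 0.01 without 3T3-L1 overexpression replicate 1. Bnip3l, a mitophagy receptor, had 0.18 ± 0.35 that became -0.04 without 3T3-L1 control replicate 2. The adjusted p was 1 by edgeR for each of the 3.

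**Figure D4:**
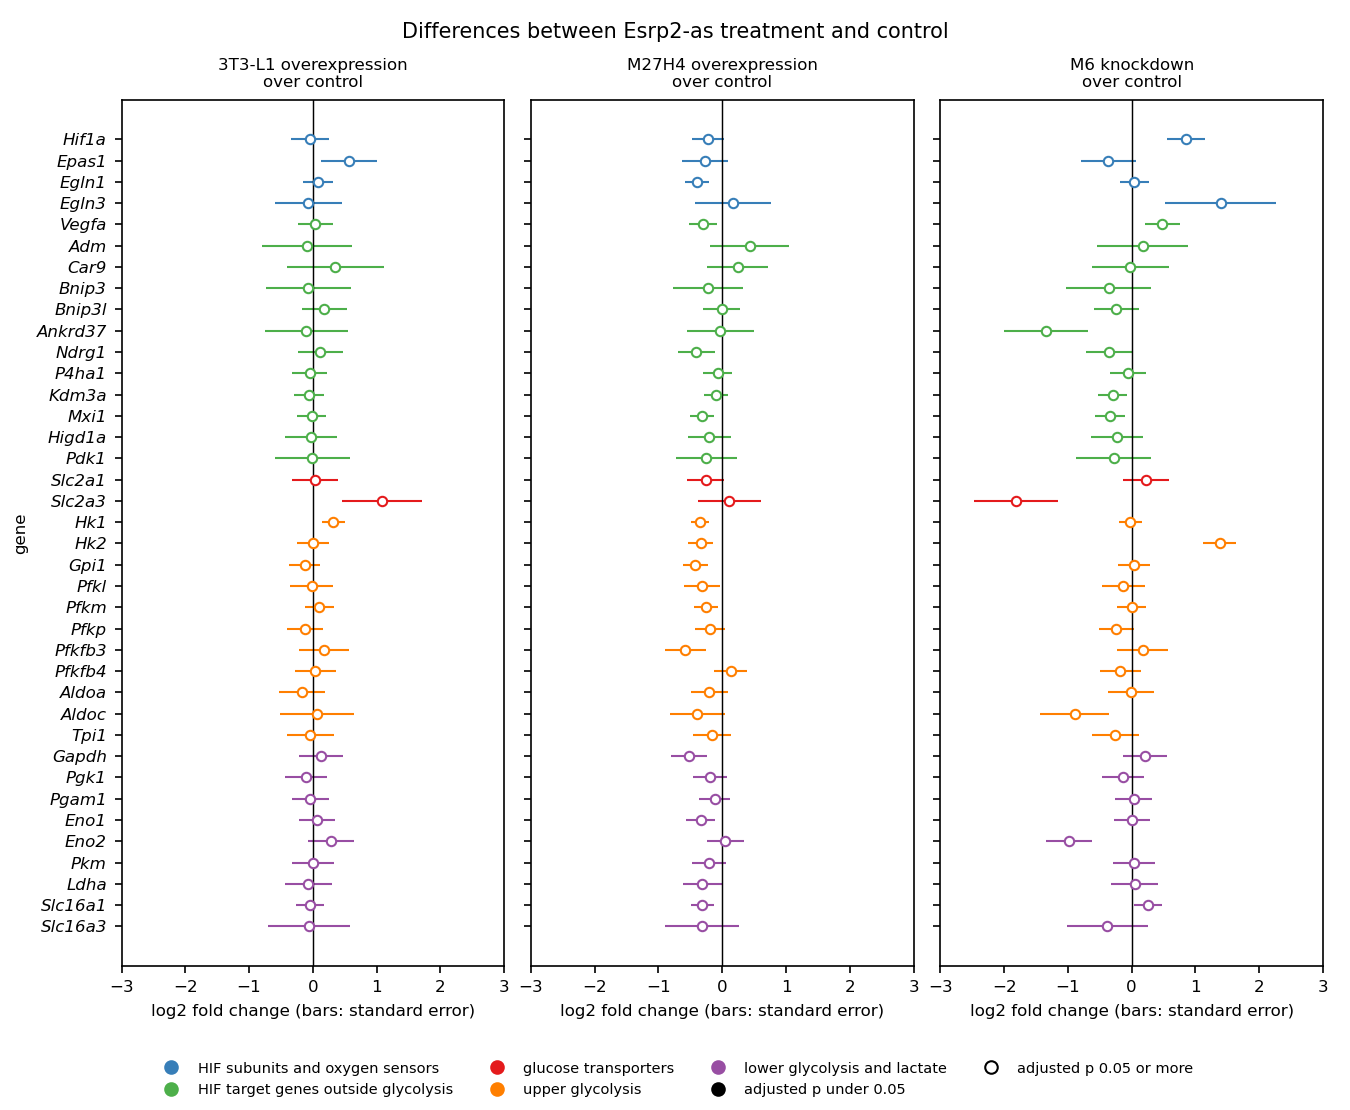
Log2 fold change (x axis) of each of the 38 genes (rows, coloured by role) between treated and control replicates within 3T3-L1, M27H4 and M6, with bars for the standard error and open points for an edgeR adjusted p of 0.05 or more. All points are open. In M27H4 32 of the 38 lie left of 0, and in M6 Hk2 lies at 1.38 with an error bar of 0.26 to each side.

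Overexpression was done in 2 lines, so its effect could be compared between them. No gene of the 38 passed edgeR's test of the M27H4 effect minus the 3T3-L1 effect (1 at an unadjusted p under 0.05, against 320 of all genes, and none with DESeq2 or limma voom), where 0.00471% of all tested genes did. The gene with the unadjusted p under 0.05 was Hk1, which was lower with overexpression in M27H4 and higher in 3T3-L1. Its effects differed by a log2 of -0.67 ± 0.23 (unadjusted p = 0.0109, edgeR adjusted p = 1).

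Many of the 38 genes, like many genes in general, differed in the same direction between replicates of the same line, in treated and control groups alike. In M27H4, replicate 1 exceeded replicate 2 in both the overexpression and the control group for 29 of 35 genes with a mean of at least 1 CPM (82.9%), against 20.5% of 12709 genes at that level. The median log2 ratio was 0.47 in overexpression and 0.7 in control, against -0.07 and -0.13 for all genes. Against replicate 3, replicate 1 was higher in both groups for 25 of 35 genes (71.4%), where 18.7% of all genes were. Pdk1, which slows pyruvate entry into mitochondria, illustrates this, with 74.7, 21.1 and 36.4 CPM in M27H4 overexpression and 87.3, 25.6 and 43.9 CPM in M27H4 control. Bnip3, a mitophagy receptor, had 137, 51.6 and 58.8 CPM in overexpression and 171, 45.9 and 73.6 CPM in control. In both genes replicate 1 was the highest of each group. Replicate 1 of both M27H4 groups had a column code found nowhere else, so replicate and code cannot be told apart there.

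In M6, replicate 2 exceeded replicate 1 in both groups for 25 of 35 genes (71.4%), against 52.6% of 12867 genes, with medians of 0.43 in knockdown and 0.7 in control against 0.17 and 0.14. It was lower in both groups for 11.4% of the 35 genes and 27.9% of all genes. The 2 ratios correlated across genes at 0.63 for the 35 and 0.6 for all genes. What set these genes apart in M6 was thus the direction, and agreement between the groups was about as common among all genes. Ldha was at 769.7 and 1278 CPM in M6 knockdown and 599 and 1386 CPM in M6 control, and Aldoa at 537 and 814 CPM in knockdown and 421 and 936 CPM in control. The lower value of each pair is replicate 1. Columns of the same code showed it too, where replicate 2 over replicate 1 had a median log2 ratio of 0.26 in knockdown and 0.49 in control over the 35 genes, while technical replicates of replicate 2 differed by medians of 0.07 in knockdown and -0.06 and 0.01 in control. In 3T3-L1 the medians of replicate 2 over replicate 1 were -0.05 in overexpression and -0.13 in control. There replicate 2 was higher in both groups for 24.2% of 33 genes and lower in both for 51.5%, against 36% and 36.8% of all genes. These replicate ratios are descriptions across genes of the same libraries, with no test.

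**Figure D5:**
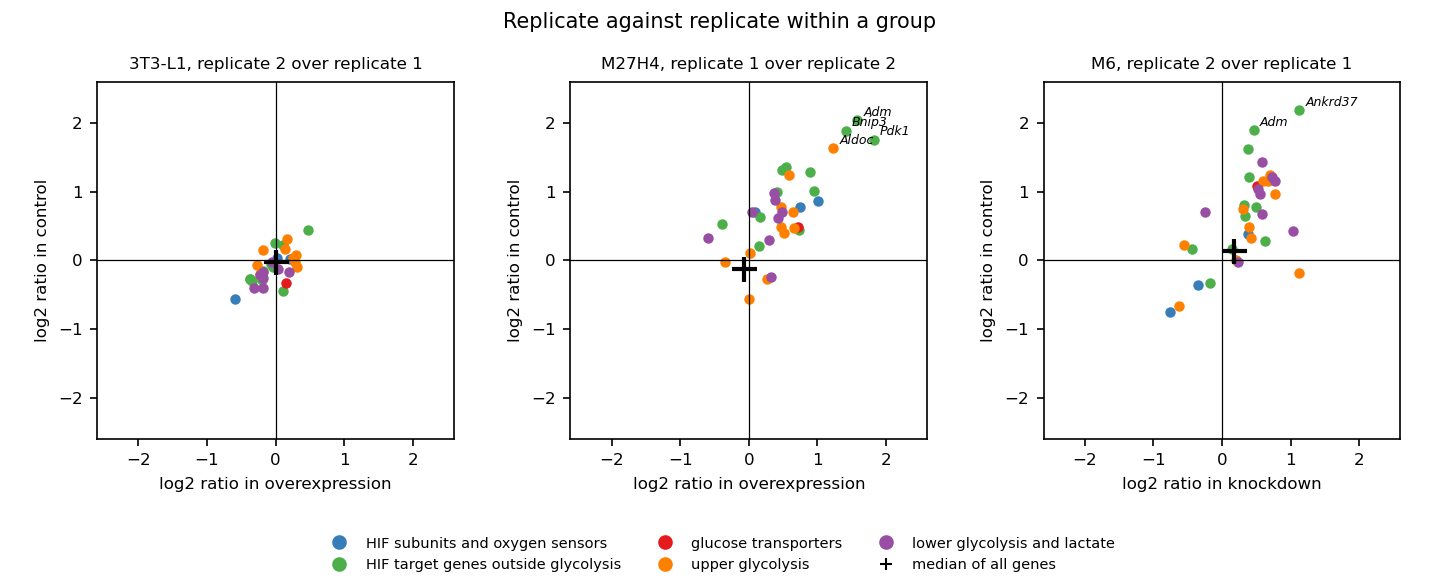
Log2 ratio of 2 replicates in the treated group (x axis) against the same ratio in the control group (y axis) for each gene with a mean of at least 1 CPM (points, coloured by role), with a cross at the median of all genes. In M27H4 29 of 35 points lie above 0 on both axes, where replicate 1 exceeds replicate 2 in both groups, and in M6 25 of 35 do for replicate 2 over replicate 1.

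Other genes of the 2 pathways were called by edgeR in no treatment comparison, where few genes of any kind were, with 23 of 33 other glycolysis genes and isozymes and 44 of 45 other HIF regulators and hypoxia targets tested. Between lines, 4 of the 23 other glycolysis genes (17.4%) were higher and 10 (43.5%) lower in 3T3-L1 control than in M27H4 control, where 18.9% and 17.8% of all tested genes were. Against M6 control 4 (17.4%) were higher and 7 (30.4%) lower in 3T3-L1 control, beside 20.5% and 18.9% of all genes. In M27H4 control 10 (43.5%) were higher and 5 (21.7%) lower than in M6 control, beside 15.2% and 15.0%. Ldhb, the heart isozyme of lactate dehydrogenase, averaged 23.7 ± 6.7 CPM in 3T3-L1 control (SD, n = 2), 4.03 ± 0.798 CPM in M27H4 control (SD, n = 3) and 54.1 ± 13.5 CPM in M6 control (SD, n = 2). It was called in each line comparison, with log2 differences of 2.56 ± 0.37 for 3T3-L1 over M27H4, -3.75 ± 0.38 for M27H4 over M6 and -1.19 ± 0.41 for 3T3-L1 over M6 (edgeR adjusted p = 0.000122, 7.02e-06 and 0.0336), the last of which was lost without 3T3-L1 control replicate 1 or M6 control replicate 2. Slc2a10, a glucose transporter, averaged 13.8 CPM in 3T3-L1 control, against 0.0916 CPM in M27H4 control and 0.0325 CPM in M6 control (edgeR adjusted p = 3.17e-05 and 6.6e-05). Slc2a4, the insulin-responsive transporter, averaged 0.0642 CPM in 3T3-L1 control and 0.0274 CPM in M27H4 control against 4.3 CPM in M6 control (edgeR adjusted p = 0.000111 and 1.88e-05).

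Of the 44 other HIF and hypoxia genes, 11 (25%) were higher and 11 (25%) lower in 3T3-L1 control than in M27H4 control, beside the same 18.9% and 17.8% of all genes. Against M6 control 16 (36.4%) were higher and 12 (27.3%) lower in 3T3-L1 control, beside 20.5% and 18.9%. In M27H4 control 13 (29.5%) were higher and 9 (20.5%) lower than in M6 control, beside 15.2% and 15.0%. Car12, a membrane carbonic anhydrase, was at 2.09 CPM in 3T3-L1 control and 5.41 CPM in M27H4 control against 292 CPM in M6 control (log2 differences -7.12 ± 0.39 and -5.75 ± 0.3, edgeR adjusted p = 2.53e-08 and 4.16e-08). Arnt2, an alternative partner of the alpha subunits, was at 3.15 and 1.97 CPM in the same 2 lines against 0.00487 CPM in M6 control, where it had 3 counts (edgeR adjusted p = 6.37e-06 and 1.44e-05). Nt5e, which makes extracellular adenosine, was at 1.79 CPM in 3T3-L1 control against 141 CPM in M27H4 control (-6.3 ± 0.4, edgeR adjusted p = 9.75e-08).

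Several glycolysis genes share sequence with pseudogenes, and the counting could split their reads. Copies with at least 95% identity over at least 200 bases were found for 12 of the 38 genes. Gapdh had 93 such copies, of which 88 were in the count table, and together they held 333.7% of the counts assigned to Gapdh itself. Eno1 copies held 24.4% of its counts, mostly Eno1b, Pgam1 copies 14.5% and Pgk1 copies 12.1%. With the copies added, Gapdh averaged 686 ± 119 CPM in 3T3-L1 control, 1189 ± 438 CPM in M27H4 control and 987 ± 372 CPM in M6 control (SD, n = 2, 3 and 2). The level of Gapdh is therefore uncertain. Exons of 16 of the 38 genes overlap those of another gene, among them Hif1a with Gm49321 on the same strand, Pfkp with Pitrm1 and Car9 with the antisense gene Gm12454, which held 1691 counts against 1158 of Car9, and their values are uncertain to that extent, since the strand setting of the counting is not given.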

How the data were processed

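Per the labels, RNA of 14 biological replicates was depleted of ribosomal RNA, and libraries were made with the SureSelect kit that keeps strand. Per the submitters' processing notes, cutadapt, HISAT2, StringTie and edgeR were used with the builds mm10 and GRCm38. Versions, annotation release and strand setting are not given in the sources used here. The gene and transcript tables that the authors deposited hold estimated counts, written as whole numbers. Their CPM tables were not used, and 1 column in each matched no sample.

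The 21 columns were summed over technical replicates. The gene identifiers were looked up in GENCODE M21, where 48058 matched. Unmatched ones held 0.0515% of counts. Genes were kept with filterByExpr by group, leaving 21237, and scaled by TMM. A quasi-likelihood model (edgeR 4.0.16, R 4.3.3, robust) was fitted over the 6 groups with 8 residual degrees of freedom, and p-values were adjusted over all tested genes by the method of Benjamini and Hochberg, with calls at 0.05. The script was tested on simulated data. A log2 difference is given with its standard error (SE), and SD is between replicates. Pairs of replicates were compared as log2(CPM + 0.1), for genes with a mean of at least 1 CPM in the line. Copies were found with BLAST 2.17.0. Depth ran from 34892461 to 328493417 counts, and deeper replicates give less counting error.

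In a treatment comparison the 6 genes with the smallest p were named, and in a line comparison up to 4 calls each way. Other genes named were chosen after their values were seen. Alternatives were DESeq2 1.42.0, limma 3.58.1 voom, other scaling, no filter, a replicate block, the compared groups alone, columns of certain codes, each replicate left out and, chosen after seeing the data, added copies. The 38 genes, roles and lists were chosen with earlier results of these data known.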

Additional observations from a re-analysis of the deposited data

How the results depend on the processing

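The count of called genes in M6 knockdown was 0 with edgeR, 1 with DESeq2, 1 without the filter on low counts and 0 to 1 when 1 replicate was left out, and the gene was Hk2 each time. With the replicate number as a block it was 3 (Hk2 and Hif1a higher, Eno2 lower). The share of all genes called is not given here for DESeq2, for the unfiltered fit or for the block. These counts of called genes therefore cannot be set against it. With this block no named gene of the M27H4 and 3T3-L1 treatment comparisons gained a call. Same-numbered replicates deviated together with correlations of 0.696 in M6, 0.55 in 3T3-L1, and 0.476, 0.0592 and 0.344 in M27H4. In M27H4 and 3T3-L1, treated and control replicates of the same number also had the same column codes. The labels do not give the meaning of these codes and name no shared batch. The numbers were not taken to pair the samples, because M6 and 3T3-L1 have only 2 numbers each, and 1 value in M27H4 is under 0.1. Whether same-numbered replicates form pairs was not settled, and the tests without a block ignore any such pairing. Leaving out 1 replicate gave 8 to 19 calls in M27H4 control against M6 control, 12 to 17 in 3T3-L1 control against M6 control and 13 to 22 in 3T3-L1 control against M27H4 control. The other alternatives gave 10 to 16, 14 to 16 and 20 to 24. The lowest, 10, came from the fit to these groups alone. The share of all genes called is not given for these alternatives or for any fit without 1 replicate. Changes in these counts, here and above, therefore cannot be told apart from changes over all genes. Signs turned for Ankrd37 in M6 (-2.08 to 0.19), Gpi1 in 3T3-L1 (-0.29 to 0.01) and Bnip3l in 3T3-L1 (-0.04 to 0.42), each when 1 replicate was left out. Of 890 alternative values of the 71 results on named genes, 794 kept direction and side of the threshold, 73 lost the call, 6 gained it, 3 turned sign and 14 moved. With 2 or 3 replicates a group, small changes stay undetected, and 0 calls do not show equal levels.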

Other observations

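Some genes of the pathways that take up the carbon of glycolysis differed between lines, but their share was mostly no larger than that of all genes. Of 29 genes of pyruvate oxidation and the tricarboxylic acid cycle, edgeR called none in the treatment comparisons, where it called at most 0.137% of all genes. In 3T3-L1 control 4 (13.8%) were higher and 6 (20.7%) lower than in M27H4 control, beside 18.9% and 17.8% of all tested genes. Against M6 control 4 (13.8%) were higher and 1 (3.45%) lower in 3T3-L1 control, beside 20.5% and 18.9%, and in M27H4 control 3 (10.3%) were higher and 2 (6.9%) lower, beside 15.2% and 15.0%. Suclg2, the GTP-forming subunit of succinyl-CoA ligase, averaged 121 ± 13.2 CPM in 3T3-L1 control (SD, n = 2), 13.8 ± 2.56 CPM in M27H4 control (SD, n = 3) and 84.7 ± 8.38 CPM in M6 control (SD, n = 2). Its log2 difference was 3.13 ± 0.18 for 3T3-L1 over M27H4 (edgeR adjusted p = 4.61e-08) and -2.62 ± 0.17 for M27H4 over M6 (edgeR adjusted p = 2.15e-07). Pdp1, which reactivates pyruvate dehydrogenase, was higher in 3T3-L1 control than in M27H4 control (1.18 ± 0.2) and than in M6 control (2.17 ± 0.24). Pdk2, a kinase that inhibits that enzyme, was lower in 3T3-L1 control than in M27H4 control (-1.54 ± 0.35, a call lost without 3T3-L1 control replicate 1) and higher in M27H4 control than in M6 control (1.97 ± 0.37).

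Of 9 genes of the pentose phosphate pathway, which branches from upper glycolysis, none was called with treatment. In 3T3-L1 control 1 (11.1%) was higher and 4 (44.4%) were lower than in M27H4 control, and 1 (11.1%) was higher and 3 (33.3%) lower than in M6 control, beside the same shares of all genes. In M27H4 control 1 (11.1%) was higher than in M6 control. Within the oxidative arm, Pgd was higher in 3T3-L1 control than in M27H4 control (log2 difference 1.52 ± 0.23, edgeR adjusted p = 0.000177), whereas G6pdx, which catalyses the step that commits glucose to the pathway, was lower (-1.56 ± 0.19, edgeR adjusted p = 3.17e-05).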
